A study of Mus musculus with 6 samples.

Results

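A set of 7 genes for proteins that the liver secretes into blood plasma was followed as decoded transcripts: Hpx, Ambp, Cp, Gc, Apoc4, Serpina10 and Kng2. All 7 were taken by name out of the 477 genes of a Xenium panel, an in situ assay that decodes single transcripts inside fixed tissue and assigns them to segmented cells. The 7 genes were on the panel of 4 sections, and 0 of them were on the 5050-gene panel of the other 2 sections (E13.5 fetal liver and 89-week-old bone marrow), which therefore give no value here.

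All sections came from wild-type C57BL/6 mice. The 4 sections were an E14.5 fetal liver, a femur with its bone marrow from postnatal day 8 (P8), the spleen of an untreated adult, and the spleen of a mouse given phenylhydrazine (PHZ), a drug that lyses red cells, at 40 mg/kg by 2 injections per day for 2 days. They were 5 µm slices of formalin-fixed, paraffin-embedded tissue. There was 1 section per condition, so no comparison has a replicate check, and every interval given is a 95% interval that covers counting error only. The liver and femur shared a slide and the spleens shared another, so slide and organ cannot be told apart between liver and spleen.

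Plasma proteins are made mainly by hepatocytes, which in the fetal liver lie among the blood-forming cells that the organ hosts. Hemopexin (Hpx) binds free heme, alpha-1-microglobulin (from Ambp, whose product is also cut to give the protease inhibitor bikunin) scavenges heme and radicals, and ceruloplasmin (Cp) carries copper and oxidizes iron. Gc is the vitamin D-binding protein, and Apoc4 encodes a small apolipoprotein of lipid-carrying particles. Serpina10 encodes an inhibitor that acts with protein Z on activated coagulation factor X. Kng2 encodes a kininogen, the precursor of bradykinin, and has a close paralog, Kng1; whether the probes tell the pair apart is not given in the sources used here.

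The sections held 20952143 gene transcripts in 117329 cells (E14.5 fetal liver), 6446659 in 52594 (P8 bone marrow), 10351683 in 108338 (untreated spleen) and 11430388 in 94582 (PHZ-treated spleen), with medians of 84 to 167 transcripts per cell. Each section also had 20 negative control probes, designed against no mouse gene, and the highest of them reached at most 105, 40, 77 and 76 transcripts in the same order, or 5.01 to 7.44 in every 1e+06 gene transcripts (CPM). Each gene had 8 probe pairs except Apoc4, with 2, so levels were compared between sections of a gene and not between genes, apart from sums and shares. Sums over the 7 genes, and the share of Cp in them, count transcripts as decoded, with no adjustment for probe pairs.

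All of the genes but Cp were liver genes in these data. In the E14.5 fetal liver, 6 of 7 had their highest level of the 4 sections, against 20.1% of all 477 genes, and the same 6 exceeded the highest other section at least 10-fold, against 4.61% of all genes. The 7 genes together made up 4.21% of all transcripts in the fetal liver and 0.160% to 0.288% elsewhere.

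Among the genes of heme and iron handling, Hpx stood at 5972 CPM in the fetal liver, at 30.6 CPM in marrow, and at 31.5 and 20.8 CPM in the spleens, untreated first. Ambp stood at 18212, 29.9, 15.4 and 22.7 CPM in the same order. The fetal liver exceeded the other sections by 190-fold to 287-fold for Hpx and by 608-fold to 1186-fold for Ambp. Cp ran the other way, at 409 CPM (401 to 418) in the fetal liver, 1297 (1270 to 1326) in marrow, 2165 (2137 to 2194) in the spleen without PHZ and 2734 (2704 to 2765) in the spleen with it. Thus the fetal liver had the lowest Cp level of the 4 sections, 3.17-fold below the bone marrow and 6.68-fold below the PHZ-treated spleen.

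The carriers Gc and Apoc4 were high only in the fetal liver among these 4 sections. Gc measured 8599 CPM there and 41.1 CPM in marrow, with 27.2 and 24.6 CPM in the spleens without and with PHZ. Apoc4 measured 724 CPM in the liver and 12.3, 7.92 and 11.5 CPM in the other sections. Its 82 transcripts in the untreated spleen were 1.06 times the highest control probe, the nearest that any of these genes came to background.

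Of the genes of the proteolytic cascades, Serpina10 measured 1699 CPM in the fetal liver and 11.9 in marrow, against 36.3 (32.7 to 40.2) in the spleen without PHZ and 20.03 (17.5 to 22.8) in the spleen with it. Kng2 measured 6510 CPM in the liver and 178 in marrow, against 47.6 and 43.5 in the same spleens. The bone marrow value of Kng2 was 28.8 times the highest control probe, and the liver still exceeded it 36.5-fold (34.4 to 38.7).

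**Figure D1:**
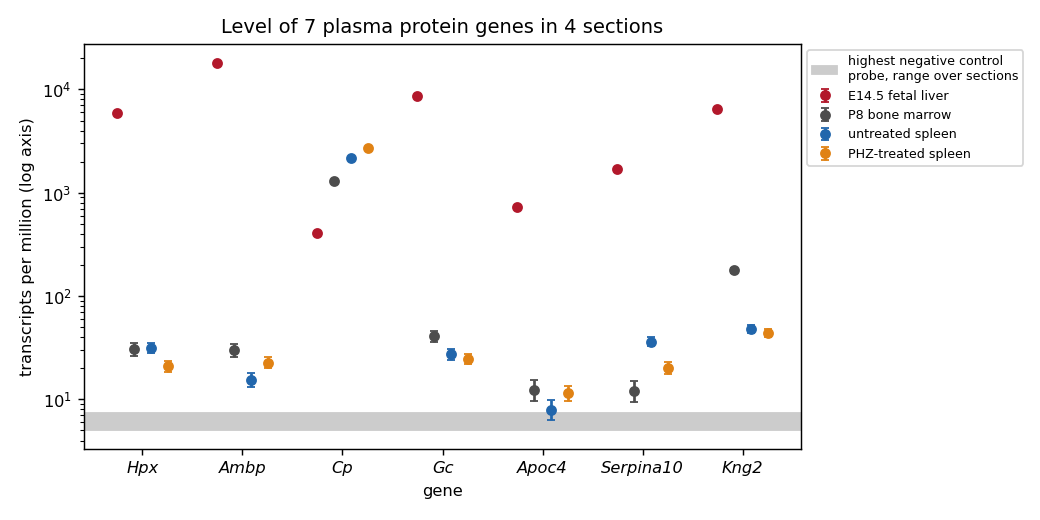
Transcripts in CPM (vertical log axis) of the 7 genes (horizontal axis) in the 4 sections, with 95% Poisson intervals as bars, and the range over sections of the highest negative control probe as a grey band. Every gene but Cp stands highest in the E14.5 fetal liver, Cp stands lowest there at 409, and Apoc4 in the untreated spleen, at 7.92, lies closest to the band.

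Other genes of the same kinds were less uniform. The 7 genes and these lists were chosen with earlier results of these data known, so the contrast is a description only. Of 11 other secreted plasma protein genes on the panel, 7 were highest in the fetal liver and 3 exceeded every other section at least 10-fold: Apoc2 and Hc, for an apolipoprotein and complement component 5, and Igfbp1, for a binding protein of insulin-like growth factors. Those that were not highest there included Hp (haptoglobin, which binds free hemoglobin), Serpina3n and Serpinf1. Of 15 other hepatocyte genes, 11 were highest in the liver and 5 passed 10-fold (Aadat, Abcb11, Slc27a2, Tm4sf4 and Uox). Those that were not highest there included Ttc36 and Prap1, with 104 and 115 transcripts in the liver, near the 105 of its highest control probe. Part of this list was thus barely detected in the liver, and these genes also count in its median ratio. The median ratio of the liver to the highest other section was 59.0 for the 7 genes, 1.29 for the other plasma protein genes, 1.78 for the other hepatocyte genes and 0.357 for all 477 genes.

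Within the fetal liver the question was whether single cells carried several of these transcripts. The cells were clustered with the 7 genes left out, and 1 of 10 clusters, with 19492 of 117323 cells (16.6%), was hepatocyte-like: 10 of 19 hepatocyte markers on the panel were at least 1.5-fold higher per cell than in the other cells and present in at least 5% of it, among them Slc27a2, Hc, Abcb11 and Igfbp1. That cluster held 41.9% of Ambp, 47.7% of Apoc4, 48.7% of Kng2, 49.6% of both Gc and Hpx, 55.0% of Cp and 60.9% of Serpina10 transcripts. A wider gate, of cells with at least 3 transcripts of hepatocyte genes (52.5% of cells), held 85.9% (Ambp) to 92.4% (Serpina10). All 7 genes had their highest CPM of the 10 clusters there, including Cp.

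Per hepatocyte-like cell there were 8.20 transcripts of Ambp, 4.58 of Gc, 3.41 of Kng2, 3.19 of Hpx, 1.11 of Serpina10, 0.371 of Apoc4 and 0.242 of Cp. Per cell outside the cluster there were 2.27, 0.929, 0.715, 0.644, 0.142, 0.0811 and 0.0395 in the same order. The ratio of hepatocyte-like to other cells ran from 3.62-fold for Ambp to 7.82-fold for Serpina10.

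Most hepatocyte-like cells held several of the genes at once. At least 4 of the 7 were detected in 85.5% of them and all 7 in 4.00% (779 cells), at a median of 161 transcripts of all genes per cell. In the erythroid-like cluster, named from red cell genes, at least 4 were detected in 4.95% of 10817 cells and at least 1 in 61.2%, at a median of 97 transcripts. In the C1q+ macrophage-like cluster the corresponding shares were 9.08% and 62.5% of 14540 cells, at a median of 156 transcripts. Over all cells outside the hepatocyte-like cluster at least 4 were detected in 23.5% (23024 of 97831). Ambp alone was found in 98.9% of hepatocyte-like cells and in 45.8% (erythroid-like) to 94.7% of the cells of the other clusters. The highest of these were the erythroid or other progenitor-like cluster and an unnamed cluster. The progenitor-like cluster stood at 94.7%, with 5.16 transcripts per cell and a median of 243 transcripts of all genes. The unnamed cluster stood at 94.0% with 3.58, at a median of 177. Its leading genes included the red cell genes Hemgn, Rhd, Klf1, Gata1 and Epor, so the erythroid-like cluster need not hold all erythroid cells.

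The genes were found together more often than cell depth alone gave. Expected numbers were computed within 20 strata of cells of like depth, counting transcripts of all genes but these 7. All 21 pairs exceeded them, with log2 observed over expected from 0.30 (Ambp with Kng2) to 1.17 (Serpina10 with Cp) and a median of 0.62. The direction turned in cells thinned to 100 transcripts within the same strata, at a median of -0.090 and with 0 of 21 pairs above, where equal totals make the strata follow the 7 genes themselves, and it was 0.77 with 21 of 21 above when the thinned cells were not divided into strata. For Serpina10 and Cp, 3167 cells held both and 1405 were expected, and 46.6% of the cells with Cp also held Serpina10. For Ambp and Kng2, 52123 cells held both and 42460 were expected; Ambp was present in 72.6% of all cells, which bounds how far its pairs can exceed expectation. Over all 36585 pairs of genes present in at least 1% of cells the median was -0.01, and 48.9% lay above 0.

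Genes of other cell types gave lower values. With C1qb of macrophages the 7 genes had a median log2 ratio of -0.58 and all 7 lay below 0. The medians were -0.35 with Plvap of endothelium, -0.30 with Col1a1 of fibroblasts and -0.19 with Pf4 of megakaryocytes. With the neutrophil gene S100a9 it was 0.12, with all 7 above 0. With other hepatocyte genes 103 of 105 combinations lay above 0, at a median of 0.57. The red cell gene Slc4a1, found in 97.1% of all cells, leaves this ratio no room and is not given.

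Within the hepatocyte-like cluster there was little room for an excess in pairs with Ambp, Gc, Kng2 or Hpx, each found in 87.9% to 98.9% of its cells. Serpina10, Apoc4 and Cp, found in 57.9%, 28.0% and 16.9% of them, left more room among themselves. The 21 pairs lay between 0.00 and 0.14, at a median of 0.03, all above 0. The largest value was again that of Serpina10 with Cp, seen together in 2261 cells where 2049 were expected. Serpina10 with Apoc4 stood at 0.11 and Cp with Apoc4 at 0.07 (1076 cells where 1026 were expected). For these pairs the excess was small although there was room for more.

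**Figure D2:**
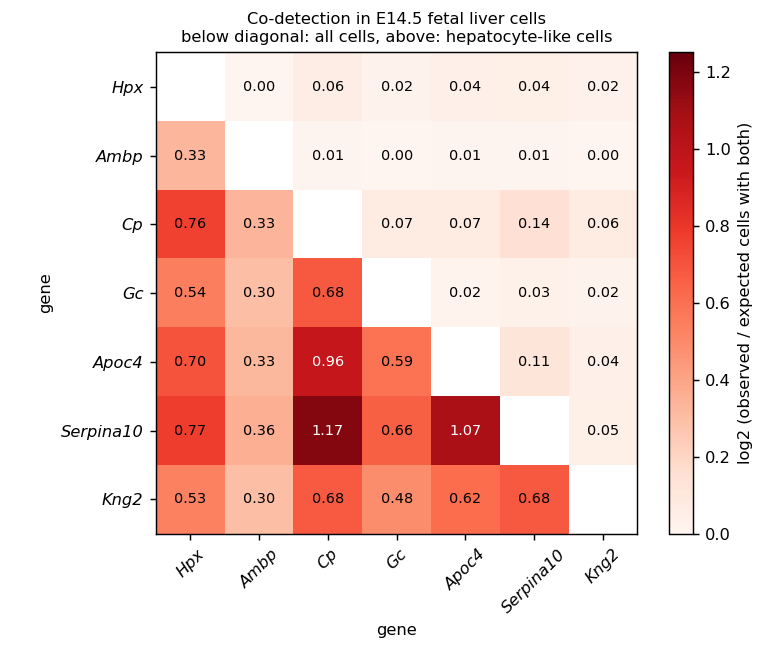
Log2 of observed over expected numbers of E14.5 fetal liver cells with both genes of a pair, for all 117323 cells (below the diagonal) and for the 19492 hepatocyte-like cells (above it). Values below the diagonal run from 0.30 to 1.17 and those above it from 0.00 to 0.14.

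Cells outside the hepatocyte-like cluster carried more of these transcripts the more hepatocyte-like cells they touched. Contacts were edges of a Delaunay network of cell centres of at most 400 µm, which join neighbouring cells that need not touch. Ambp measured 1.24 transcripts per cell in the 43558 cells with 0 contacts, 2.53 with 1, 3.52 with 2 and 4.61 in the 7123 cells with at least 3. Between 0 and at least 3 contacts the ratio was 3.74-fold for Ambp, 4.20-fold for Gc, 4.93-fold for Serpina10 and 3.32-fold for Cp, and between those for Kng2, Hpx and Apoc4. These ratios pool clusters whose mix differs with the number of contacts. Within the erythroid-like, C1q+ macrophage-like and endothelial-like clusters, Ambp, Gc, Kng2, Hpx and Serpina10 rose with each further step of contacts. Ambp went from 0.537 to 1.57 per cell in erythroid-like, 0.737 to 3.11 in C1q+ macrophage-like and 1.45 to 4.25 in endothelial-like cells. The sparser Cp went from 0.00933 to 0.0176 per cell in erythroid-like cells (6 transcripts in 341 cells, with 0.0239 at 2 contacts). In endothelial-like cells Cp went from 0.0226 to 0.0495, with 0.0418 at 1 contact and 0.0368 at 2. In C1q+ macrophage-like cells it went from 0.0137 to 0.0737. Apoc4 went from 0.0159 to 0.0469 in erythroid-like cells. For the red cell gene Slc4a1 the pooled ratio was 0.979-fold. Within clusters Slc4a1 was also higher with at least 3 contacts than with 0. It went from 12.5 to 14.6 per cell in C1q+ macrophage-like, 12.0 to 13.2 in endothelial-like and 11.2 to 11.8 in erythroid-like cells. Pooled again and counting only transcripts over the nucleus, the ratio was 2.95-fold to 4.18-fold for the 7 genes. Whether these transcripts were made in the cells they were assigned to was not tested.

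**Figure D3:**
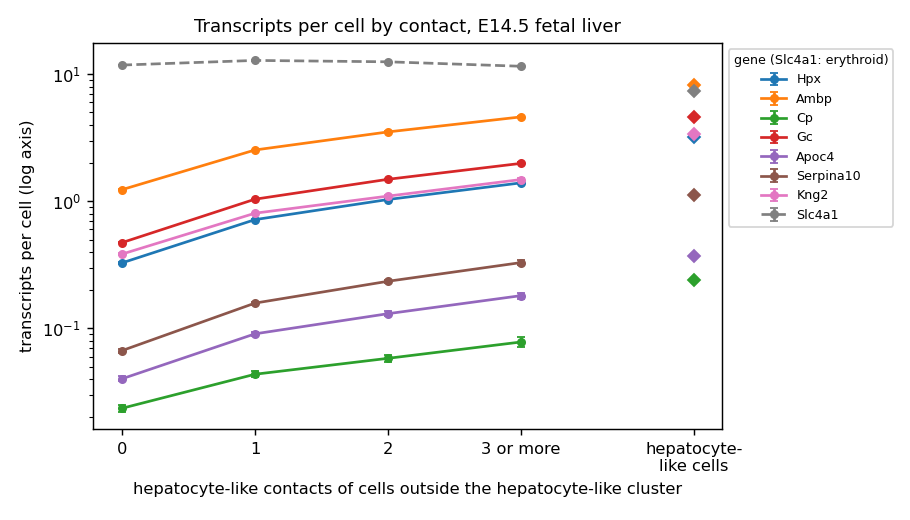
Transcripts per cell (vertical log axis) of the 7 genes and of the erythroid gene Slc4a1 in E14.5 fetal liver cells outside the hepatocyte-like cluster, by their number of hepatocyte-like contacts, with 95% Poisson intervals, and in hepatocyte-like cells (diamonds). All 7 genes are higher with more contacts, Ambp from 1.24 to 4.61, while Slc4a1 lies between 11.6 and 12.8.

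The gene nearest to each of the 7 over the 117323 cells, by Pearson correlation of log-scaled counts, was always another hepatocyte or plasma protein gene. It was C3 (complement component 3) for Ambp (r = 0.57), Ambp for Gc (0.55) and for Kng2 (0.52), Gc for Hpx (0.54) and for Cp (0.21), and Slc27a2, a fatty acid transporter, for Serpina10 (0.41) and Apoc4 (0.26). These correlations share cells, depth and neighbours and are given without a test.

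Across the liver the 7 genes did not vary as one. The hepatocyte-like cells were summed in squares of 100 µm that held at least 20 of them, which gave 535 squares in 4 separate pieces of tissue on the section. Whether the pieces came from different embryos is not given in the sources used here. Over these squares the 90th percentile was 8.93 times the 10th for Cp (330 to 2945 CPM), 3.99 times for Apoc4 (851 to 3398), 2.46 times for Gc (15699 to 38614) and 1.32 times for Ambp (40663 to 53811). Counting noise is part of these spreads and is larger for genes with few transcripts, such as Cp with 0.242 and Apoc4 with 0.371 per hepatocyte-like cell against 8.20 for Ambp, so the genes were not ranked by them.

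Gc, Hpx, Kng2 and Cp were high in the same squares. Their pairwise correlations over squares ran from 0.44 (Hpx with Cp) to 0.67 (Gc with Cp). Apoc4 ran against Gc (r = -0.26) and Cp (r = -0.22), and Serpina10 and Ambp followed each other weakly (0.33). Within each of the 4 pieces, Gc correlated with Cp at 0.72, 0.51, 0.69 and 0.30, from the largest piece to the smallest, and Apoc4 with Gc at -0.37, -0.28, -0.50 and -0.39. Of the genes compared, the one closest to Gc was Hp (r = 0.68), which was no member of the set. These values describe squares of 1 section that share borders, and no test was made.

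The position in the section went with this pattern. In hepatocyte-like cells at most 200 µm from the edge of their piece, Cp measured 929 CPM (883 to 977), against 1643 between 200 and 400 µm and 2332 (2188 to 2483) between 400 and 600 µm. Gc measured 22321, 28611 and 34964 CPM at the same distances, and Apoc4 ran downward, at 2511, 1847 and 1580 (1462 to 1705). In the 578 cells deeper than 600 µm these values were 1984 CPM for Cp, 29895 for Gc and 1974 for Apoc4, each nearer the edge value than at the preceding distance. Ambp lay between 46966 and 47714 CPM throughout. The distances pool pieces of different Cp level (1655, 1623, 624 and 997 CPM from the largest to the smallest), and within these pieces the correlation of Cp with distance over squares was 0.37, 0.51, 0.20 and 0.06.

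**Figure D4:**
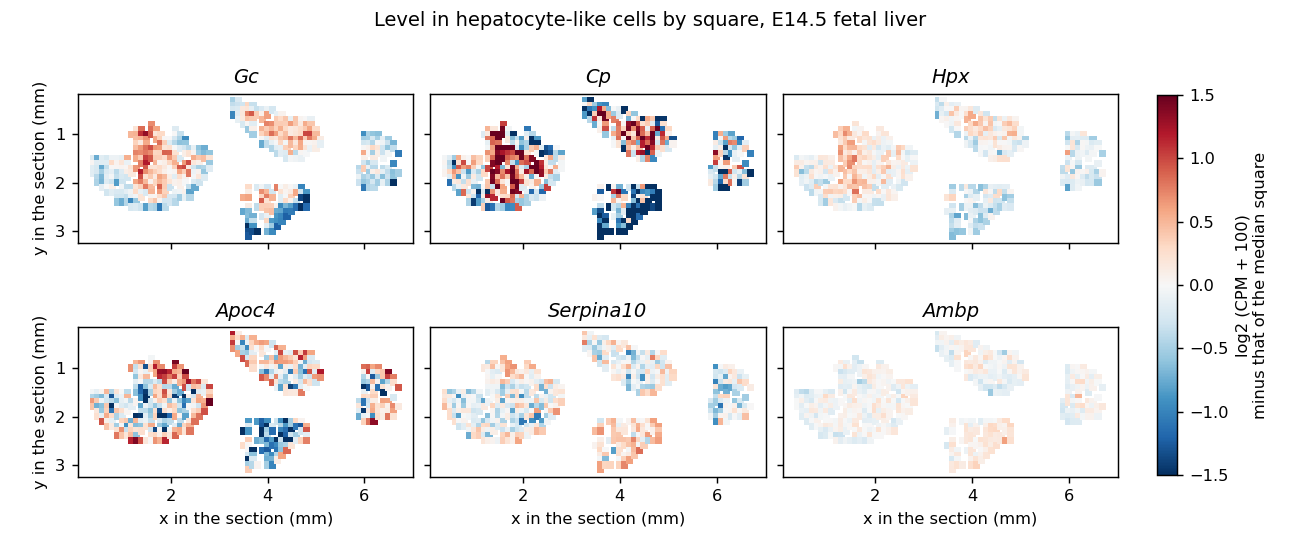
Level of 6 genes in hepatocyte-like cells of 535 squares of the E14.5 fetal liver section, at their positions (axes in mm), as log2 of CPM plus 100 minus that of the median square. Gc, Cp and Hpx are high in the same inner regions, Apoc4 tends to be low there, and Ambp, with a 90th percentile 1.32 times its 10th, is nearly even; the lower middle piece holds the least Cp.

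The stretch before the transcription start is shown for the 4 genes that were high in the same squares, with Apoc4 for contrast. Each is the 250 bases before a start in the RefSeq promoter table of GRCm38.p6, 5′ to 3′ in the gene's direction, with motif matches in capitals; the table gave starts for 6 of the 7 genes and 2 starts for Cp, the second of which is printed. The motifs searched on both strands were GTTAAT (a half-site of the hepatocyte factor HNF1), CAAAGTCCA (HNF4), TGTTTAC or TATTTAC (FOXA) and TTGCNNAA (C/EBP).
Gc, chr5:89457899-89458148, minus strand: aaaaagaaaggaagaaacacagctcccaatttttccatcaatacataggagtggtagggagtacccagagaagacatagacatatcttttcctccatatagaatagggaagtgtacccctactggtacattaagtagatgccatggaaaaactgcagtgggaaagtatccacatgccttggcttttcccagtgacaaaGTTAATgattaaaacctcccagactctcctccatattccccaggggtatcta
Hpx, chr7:105600117-105600366, minus strand: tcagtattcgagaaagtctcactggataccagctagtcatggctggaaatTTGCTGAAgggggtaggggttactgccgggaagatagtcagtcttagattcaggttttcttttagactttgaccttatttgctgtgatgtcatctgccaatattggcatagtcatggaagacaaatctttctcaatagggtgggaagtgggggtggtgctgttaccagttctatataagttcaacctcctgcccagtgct
Kng2, chr16:23029102-23029351, minus strand: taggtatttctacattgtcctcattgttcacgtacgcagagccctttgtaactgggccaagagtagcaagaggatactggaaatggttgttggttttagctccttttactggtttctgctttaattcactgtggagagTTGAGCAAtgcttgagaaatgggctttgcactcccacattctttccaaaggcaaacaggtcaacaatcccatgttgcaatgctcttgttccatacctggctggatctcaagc
Cp, chr3:19956999-19957248, plus strand: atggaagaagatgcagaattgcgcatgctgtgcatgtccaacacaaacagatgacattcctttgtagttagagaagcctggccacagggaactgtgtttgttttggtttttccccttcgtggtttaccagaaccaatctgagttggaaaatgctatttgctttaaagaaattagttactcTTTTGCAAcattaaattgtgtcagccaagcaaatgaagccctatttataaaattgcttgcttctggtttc
Apoc4, chr7:19681461-19681710, minus strand: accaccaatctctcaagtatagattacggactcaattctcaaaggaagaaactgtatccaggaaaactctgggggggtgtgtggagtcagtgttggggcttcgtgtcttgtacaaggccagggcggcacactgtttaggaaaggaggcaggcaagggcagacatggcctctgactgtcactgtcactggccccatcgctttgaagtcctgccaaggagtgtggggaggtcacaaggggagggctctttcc
The Gc sequence held the HNF1 half-site 52 bases before the start (the other start of Cp held it at 194), and the Hpx, Kng2 and Cp sequences each held the C/EBP motif, at 200, 112 and 70 bases before the start. Of all 32851 starts in the table, 6.43% held the HNF1 half-site, 9.56% the C/EBP, 5.76% the FOXA and 0.384% the HNF4 motif in the same window. No match was found for Apoc4 or Ambp in these windows, which says only that these letters are not there.

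Outside the liver, all 7 genes exceeded the highest negative control probe in each of the 3 sections, as did 97.5% to 98.7% of all genes. At a quality score of at least 30 this held for 6 of the 7 in the bone marrow, where Serpina10 lay below that probe and 31.2% of its transcripts reached that score. The 6 genes other than Cp summed to 304 CPM in marrow and to 166 and 143 CPM in the spleens without and with PHZ, against 41716 in the fetal liver. Cp made up 81.0%, 92.9% and 95.03% of the transcripts of the 7 genes in those 3 sections, and 0.972% in the liver. With Cp, the summed level was 3.80% of that of the liver in the bone marrow, 5.53% in the untreated spleen and 6.83% in the PHZ-treated spleen. Per 1000 cells in place of CPM the value of the untreated spleen was 2.96%.

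Few cells outside the liver held several of the genes. At least 2 of the 7 genes were found in 426 of 50523 cells in the marrow section, 353 of 108327 in the spleen without PHZ and 347 of 94492 in the spleen with it, and no cell held more than 4. In marrow the share of cells with another of the genes lay above that of all cells for each gene. It ran from 15.6% against 13.3% for Serpina10, which rests on 12 of 77 cells, to 30.8% against 12.0% for Kng2. For Cp it was 7.25% against 3.50%. These shares and those of the spleens below were not matched for cell depth and have no interval. Serpina10 had the highest such share in each spleen, 40.0% of its 360 cells against 14.9% of all cells without PHZ and 31.4% of 229 against 18.1% with it. In the spleen without PHZ, Kng2 lay below, at 12.6% against 14.7%, and in the spleen with it Ambp stood at 17.9% against 18.1%.

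Outside the liver Cp was higher in cells that also held stromal transcripts, though not in those alone. Cells with at least 3 transcripts of a list of stromal genes, a gate chosen after the values were seen, held 91.9% of Cp transcripts in marrow and 76.0% and 89.6% in the spleens without and with PHZ, being 61.5%, 30.6% and 35.2% of cells. Cp per cell was 7.07-fold, 7.15-fold and 15.8-fold higher inside the gate than outside, where the cells were also shallower (medians of 124 against 97, 108 against 75 and 122 against 95 transcripts). In the fetal liver the same gate gave 0.960-fold. In marrow the stromal-like cluster held 42.2% of Cp at 3494 CPM, and the neutrophil-like cluster 24.6% at 1511 CPM. In the spleens, cells with at least 3 transcripts of hepatocyte genes also had more Cp per cell than the others, 6.22-fold without PHZ and 7.55-fold with it, at median depths of 140 against 82 and 147 against 100 transcripts. In CPM these cells stood at 6656 against 1877 and at 8923 against 1701. In the untreated spleen the stromal-like cluster had 7202 CPM of Cp and 43.4% of cells with a transcript, against 7.41% in the NK cell-like cluster, at medians of 94 and 104 transcripts of all genes. In the PHZ-treated spleen no cluster was stromal-like, and Cp was highest in the C1q+ macrophage-like (6277 CPM), T cell-like (5622 CPM) and progenitor-like (4021 CPM) clusters, with 286 CPM in the lowest, an erythroid-like cluster.

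The genes found with Cp most in excess of expectation included markers of several cell kinds. In the untreated spleen they were Dsc3 (desmocollin 3, 1021 cells, log2 observed over expected 1.39), F3 (tissue factor, 1146 cells, 1.30) and Serpina3n (1800 cells, 1.23). In the PHZ-treated spleen they were Dsc3 (1.54), F3 (1.53) and Ccdc80 (1.52, 2191 cells). In the bone marrow they included Atp6v0d2, a proton pump subunit of osteoclasts (1.35, 694 cells), and Vsnl1 (1.22, 208 cells). Cells with Atp6v0d2 had 0.847 transcripts of Cp per cell (0.806 to 0.889), against 0.139 in the remaining cells, or 4451 against 1111 CPM, at median depths of 165 and 111 transcripts. Atp6v0d2 was picked by its co-detection with Cp in these same cells, so these values restate that choice.

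Kng2 in the P8 bone marrow was found in 2.01% of cells (1017 cells). It was spread over clusters, at 314 CPM in neutrophil-like, 281 in endothelial-like, 233 in erythroid-like, 131 in C1q+ macrophage-like and 53.5 in stromal-like cells, with 14.9 in skeletal muscle-like cells, which had 11.1 control probe transcripts per 1000 cells against 3.03 in the neutrophil-like cluster. The genes found with it in excess of expectation included Atp6v0d2 (112 cells, log2 1.14) and Cp (288 cells, 1.11).

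Serpina10 in the spleens was low and was found more often in cells with Dsc3 or Serpina3n, though neither of these groups of cells held most of its transcripts. Both genes were picked for their high co-detection with Serpina10 in the untreated spleen. The shares there restate that choice, and their intervals do not allow for it. In the untreated spleen it was found in 2.97% (2.34 to 3.72) of cells with Dsc3 and 2.42% (2.00 to 2.91) of cells with Serpina3n, against 0.271% and 0.238% of the remaining cells, at median depths of 97 and 99 against 83. In the PHZ-treated spleen it was found in 1.62% of cells with Dsc3 against 0.222% of the others. Cells with Dsc3 held 21.8% of Serpina10 transcripts without PHZ and 9.61% with it, and cells with Serpina3n held 33.0% and 40.6%. In the PHZ-treated spleen 0.580% of the 16027 cells with Serpina3n held it, against 0.173% of the others. Serpina3n itself was 3.77-fold higher in that spleen and marked 16027 cells there against 4660 in the untreated one, so these groups of cells were not compared between the spleens.

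Ambp in the PHZ-treated spleen went with Ctsg (cathepsin G, 35 cells, log2 3.18) and Fcnb (ficolin B, 35 cells, 3.17), both granule genes of immature neutrophils, and with the receptor gene Mrgpra2a (40 cells, 2.27). Cells with at least 3 transcripts of Mpo, Elane, Ctsg and Fcnb, again a gate chosen after the values were seen, held Ambp in 2.19% of 2283 cells (1.63 to 2.88), against 0.219% of the other cells. The gated cells were deeper, at a median of 145 against 103 transcripts of all genes. In CPM Ambp stood at 141 against 18.7. In the P8 bone marrow, where 6941 cells passed that gate, the shares were 0.432% (0.292 to 0.616) and 0.358% (0.304 to 0.419), whose intervals overlap. In the untreated spleen 1 of 480 such cells held Ambp, too few to compare.

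Gc, Hpx and Apoc4 outside the liver were found in 0.0748% to 0.511% of cells. In the bone marrow section Gc was found in 1.35% (1.02 to 1.75) of the 4074 cells with at least 3 transcripts of skeletal muscle genes, which surround the bone, against 0.437% (0.379 to 0.501) of the others, at median depths of 154 and 110. The skeletal muscle-like cluster also had 11.1 control probe transcripts per 1000 cells, against 2.17 to 3.14 in the neutrophil-, erythroid-, endothelial- and C1q+ macrophage-like clusters and 7.13 to 13.2 in the remaining ones, and the part of this background in the Gc value was not tested. Genes found with Gc, Hpx and Apoc4 by the same rule rested on 3 to 29 cells each. In the spleens the transcripts of Gc, Hpx and Kng2 lay over a nucleus in 75.2% to 85.4%, against 51.0% and 58.9% for all genes and 50.6% and 53.1% for the control probes. Other genes of low level had like shares, among them Hc, Igfbp1, Slc10a1 and Tm4sf4 at 78.1% to 85.3%, named after their values were seen, and the reason was not tested.

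The PHZ-treated spleen was compared with the untreated spleen as single sections of 1 mouse each, so the ratios compare these sections and not the treatment. In CPM, 0 of the 7 genes were at least 1.5-fold higher in the PHZ-treated spleen, against 16.5% of the 472 genes with at least 100 transcripts, and 2 of 7 were at least 1.5-fold lower, against 41.5%. The share that was lower is near that of all genes. The ratios were 0.55 (0.466 to 0.652) for Serpina10, 0.66 (0.557 to 0.784) for Hpx, 0.90 (0.762 to 1.07) for Gc, 0.91 (0.804 to 1.04) for Kng2, 1.26 (1.24 to 1.28) for Cp, 1.45 (1.09 to 1.93) for Apoc4 and 1.48 (1.21 to 1.81) for Ambp. The intervals of Gc and Kng2 include 1.

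These calls depended on the scale. The PHZ-treated spleen had 1.26 times as many transcripts per cell, and per cell 3 genes were at least 1.5-fold higher (Ambp 1.87, Apoc4 1.83 and Cp 1.60, against 20.6% of all genes) and 0 lower (against 29.7%). Per unit of segmented cell area Hpx and Serpina10 stood at 0.49 and 0.41 (64.2% of all genes lower) and 0 of the 7 were higher (12.9% of all genes). Of all genes called, 28.5% were higher in CPM, 40.9% per cell, 44.8% when scaled to the median ratio, 42.3% with any quality score and 16.8% per area. The quality score moved 3 of the genes by more than 1.5 times. With transcripts of every score, also those outside cells, the ratio was 1.49 in place of 0.55 for Serpina10, 1.57 in place of 0.91 for Kng2 and 3.1 in place of 1.45 for Apoc4, and at a score of at least 30 that of Serpina10 was 0.32. Of the decoded transcripts in the PHZ-treated spleen, 82.8% for Serpina10, 66.7% for Kng2 and 79.3% for Apoc4 scored under 20, against 41.6%, 25.7% and 43.1% without PHZ (29.1% and 9.45% over all genes). For the negative control probes these shares were 95.7% with PHZ and 76.8% without it, so keeping every score also adds most of the background.

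Hpx, whose protein clears heme, and Hp, whose protein clears hemoglobin, stood apart between the spleens. Hpx had 326 transcripts without PHZ and 238 with it, while Hp had 6753 and 14893, a ratio of 2.00 (1.94 to 2.06). Hp was among the leading genes of the neutrophil-like cluster of each spleen, which held 9330 cells without PHZ and 22335 with it. The part of the mix of cells in the Hp ratio was not tested. Of the 11 other plasma protein genes, 3 were at least 1.5-fold higher in CPM (Serpina3n at 3.77, Hp and Apoc2) and 4 lower (among them Trf, the iron carrier transferrin, at 0.23, C3 and Selenop), with a median ratio of 0.82 against 0.91 for the 7 genes and 0.73 for all genes.

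Cp differed between the spleens in cells with stromal transcripts, by gates chosen after the values were seen. Cp was not compared by cluster between the spleens, since only the untreated spleen had a stromal-like one, so the gated cells may lie in different clusters. Cells with a transcript of Pdgfrb, a receptor of stromal and perivascular cells, made up 12.5% of cells without PHZ and 14.02% with it, and held 0.662 and 1.45 transcripts of Cp per cell, a ratio of 2.19 (2.14 to 2.25) per cell and 1.79 (1.74 to 1.83) in CPM. In the cells without Pdgfrb the ratios were 1.05 (1.02 to 1.07) per cell and 0.826 (0.805 to 0.846) in CPM. In the stromal gate they were 1.64 per cell and 1.42 in CPM inside, and 0.743 and 0.565 outside. Col1a1, a gene of the stromal list, itself stood at 2508 CPM without PHZ and 7525 with it, in 14.3% and 32.6% of cells. The gate need therefore not select like cells in the 2 spleens, and the part of this in the Cp ratios was not tested.

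**Figure D5:**
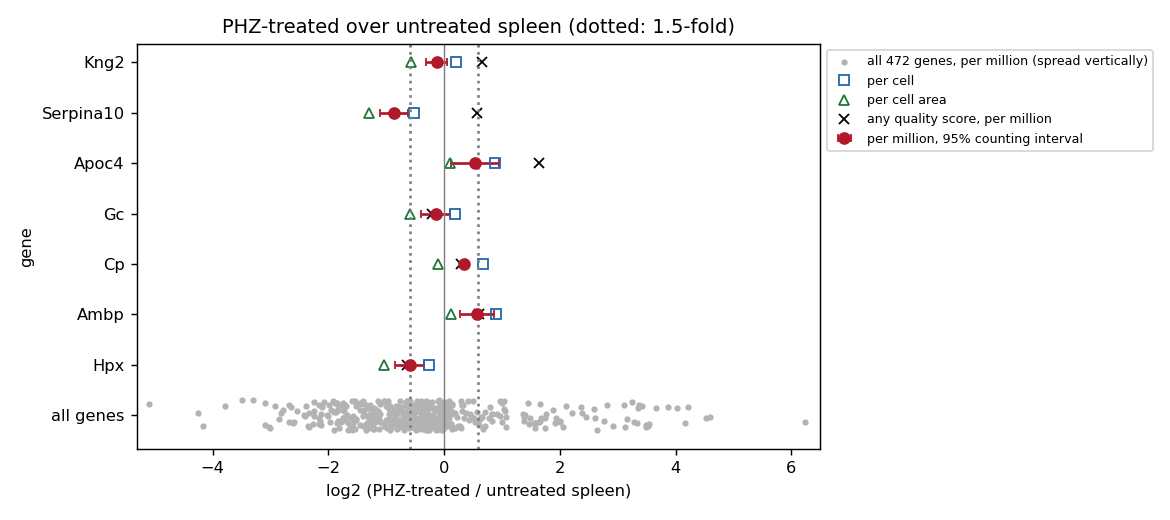
Log2 ratio of the PHZ-treated to the untreated spleen (horizontal axis) for the 7 genes: in CPM with 95% counting intervals (filled circles), per cell (squares), per cell area (triangles) and in CPM with transcripts of any quality score (crosses), above the 472 genes with at least 100 transcripts (grey, in CPM). Dotted lines mark 1.5-fold; Serpina10 and Hpx lie below the lower line in CPM, at ratios of 0.55 and 0.66, and when every quality score is kept Serpina10 and Kng2 lie on the other side of 0 (ratios of 1.49 and 1.57) and Apoc4 lies at 3.1.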

How the data were processed

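Transcripts were measured in situ on the Xenium platform in 6 sections, of which 4 carry the 7 genes. Per the file headers the runs used Xenium Onboard Analysis 1.7.1.0, while the study's methods name Space Ranger. The deposited matrices hold raw counts of transcripts with a quality score of at least 20 per segmented cell. The authors also deposited each decoded transcript with its position, cell, nucleus overlap and quality score, and counts rebuilt from them equalled the deposited matrix for every feature. Deposited cell areas and centroids were used as given. Groups came from the sample labels, with 1 section each and no replicates, so no test was run. The 7 genes, the gene lists and the gates were chosen with earlier results of these data known, and each gate but that of hepatocyte genes in the fetal liver is a choice made after its values were seen.

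Cells with at least 5 genes were kept. Clusters were made without the 7 genes: counts scaled to 5000 per cell, log-transformed, 10 principal components, 30 neighbours, Leiden resolution 0.5 (igraph 0.11.9). A cluster was named from marker lists with at least 3 markers raised. No doublet caller was run, since segmented cells are not droplets. Intervals are exact Poisson and exact binomial (scipy 1.17.1), checked on simulated counts. Genes were named as all 7, the top 3 by correlation in the liver or by co-detection elsewhere, and the listed plasma protein, hepatocyte and comparison genes. Some genes that this rule names are not reported here. Depth limits the spleen and bone marrow values of the 6 genes other than Cp, which rest on 77 to 1150 transcripts a section. Alternatives changed the scaling, quality score, nucleus, depth and clustering. Promoter sequences came from a RefSeq table of GRCm38.p6.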

Additional observations from a re-analysis of the deposited data

How the results depend on the processing

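No paired analysis was possible because each condition had 1 section and the labels give no replicate numbers. The planned E13.5 alternatives were not run, since none of the 7 genes is on that panel. The median log2 co-detection in the fetal liver, 0.62, was 1.28 with at least 2 transcripts of each gene, 1.05 over the nucleus, 0.71 without depth strata and 0.66 at a quality score of at least 30. It was -0.090, with 0 of 21 pairs above expectation, in 99092 cells thinned to 100 transcripts. In thinned cells all totals are equal, so strata of the remaining genes are strata of the 7 genes themselves; without strata, an alternative added after seeing the data, thinning gave 0.77 with 21 of 21 pairs above. The median share of transcripts in hepatocyte-like cells, 49.6%, was 44.8% at Leiden resolution 0.2, 62.3% with the 7 genes kept in the clustering, 89.0% under a gate of at least 3 transcripts of hepatocyte genes (52.5% of cells) and 57.1% over the nucleus. The summed level relative to the liver, in marrow and in the spleens without and with PHZ, 3.80%, 5.53% and 6.83%, was 2.61%, 2.96% and 4.62% per 1000 cells, 3.27%, 5.01% and 6.44% at a score of at least 30, 4.26%, 6.69% and 7.72% over the nucleus, and 3.73%, 5.21% and 6.67% without Hbb-bt. Between the spleens, 3 genes were higher and 0 lower per cell and also when scaled to the median ratio, which moves the median log2 ratio of all genes from -0.45 to 0 (-0.11 per cell, -0.89 per area) and leaves 22.0% of them higher and 27.1% lower; 2 were higher and 1 lower without Hbb-bt (17.4% and 39.0% of all genes), 1 and 1 at a score of at least 30 (17.5% and 38.4%), 0 and 1 over the nucleus (15.4% and 38.5%), and 3 (Ambp 1.52, Kng2 1.57 and Apoc4 3.1) and 1 with any score (24.3% and 33.1%), where Serpina10 turned to 1.49; at a score of at least 30 it was 0.32. The cause was not tested. The other counts between the spleens and those above the control probes moved by less than 1.5 times; Serpina10 in the bone marrow fell below the highest control probe at a score of at least 30.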
